A study of Mus musculus with 23 samples.

Results

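The genes described here are 9 chemokines that neutrophils are known to make, 4 of the CXC family (*Cxcl1*, *Cxcl2*, *Cxcl3* and *Cxcl16*) and 5 of the CC family (*Ccl2*, *Ccl3*, *Ccl4*, *Ccl6* and *Ccl9*). They were chosen by name, matched by gene symbol, and all 9 were found among 21878 genes listed for sorted neutrophils and among 55335 listed for whole lung. Bulk RNA-Seq had been done in 3 experiments on C57BL/6J mice. The paper's methods give adult ages for the mice of the study, but it introduces its neutrophil depletion as done at an early age. The age of the whole-lung mice is therefore not settled here. In the tissue experiment, neutrophils sorted as CD45+CD11b+Ly6G+ cells came from lung, peripheral blood (PB) and bone marrow (BM) of WT mice, with 3 libraries per tissue. In the Piezo1 experiment, the same sort was applied to lung and PB of WT mice and of *Piezo1*-cKO mice, with 2 libraries per group. The *Piezo1*-cKO mice carry loxP sites in both copies of *Piezo1* and a Vav1-iCre transgene, which is active in all blood cell lineages and not in neutrophils alone. The third experiment sequenced whole lungs, 3 after an isotype control antibody and 3 after an antibody to Ly6G, which depletes neutrophils. Lung cells were released by enzyme digestion, a step that PB and BM cells did not undergo. Before the sort, the paper names a negative selection kit for PB and lung cells and not for BM cells. Tissue and handling thus cannot be told apart in the comparisons between tissues. Expression is given as FPKM, the fragments on a gene scaled by its length and by the fragments sequenced, which allows levels of different genes to be set side by side.

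Chemokines are small secreted proteins that bind G protein-coupled receptors and guide the migration of leukocytes. Cxcl1, Cxcl2 and Cxcl3 carry an ELR motif, bind the receptor Cxcr2 and draw neutrophils. Ccl2 draws monocytes through Ccr2, Ccl3 and Ccl4 draw monocytes and lymphocytes, Ccl6 and Ccl9 are mouse CC chemokines that act on Ccr1, and Cxcl16 is a transmembrane ligand of Cxcr6. In myeloid cells many of these genes are switched on quickly by NF-κB, and their mRNAs are short-lived.

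Between 9621071 and 19330759 reads per library were recovered from the FPKM of sorted neutrophils. For whole lung, reads per library could not be recovered from the FPKM. All 8 neutrophil markers examined were present in every sorted group, with *S100a8* at a mean of 18900.0 FPKM in lung and 64290.0 FPKM in BM in the tissue experiment. Of 13 macrophage and monocyte markers, 4 reached a mean of 1 FPKM in lung and in PB of either sorted experiment, and *Mrc1*, *Marco*, *Ccr2* and the *C1q* genes were below 1 FPKM there. Summed over those 13 markers, the level was 222 to 228 FPKM in lung, 286 to 349 FPKM in PB and 3034 to 3144 FPKM in BM in the tissue experiment, with *Chil3* in the lead in BM. Of 6 alveolar macrophage and 6 eosinophil markers, *Marco*, *Car4*, *Fabp1* and *Krt79* and *Epx*, *Prg2*, *Il5ra* and *Ear1* stayed below 1 FPKM in every sorted group. *Siglecf*, which is in both lists, had means of 6.97 FPKM in BM to 25.9 FPKM in WT PB of the Piezo1 experiment, *Ear2* had 59.9 FPKM in BM and at most 7.88 FPKM elsewhere, and *Ccr3* had 0.742 to 3.78 FPKM. B cell, dendritic cell and mast cell marker lists reached at most 1.14 FPKM in sum, and those of T and NK, platelet and endothelial cells at most 6.18 FPKM. Epithelial markers summed to at most 24.1 FPKM, led by *Ager* in PB. The part of other cell types in the results was not tested.

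The 9 genes lie in clusters on 2 chromosomes (GRCm38). *Cxcl3* (NCBI gene 330122, 5:90786101-90788093), *Cxcl1* (14825, 5:90891245-90893121) and *Cxcl2* (20310, 5:90903899-90905938) are neighbours on the plus strand of chromosome 5. *Ccl2* (20296, 11:82035577-82037452), *Ccl9* (20308, 11:83572917-83578636), *Ccl6* (20305, 11:83587886-83593087), *Ccl3* (20302, 11:83647843-83649378) and *Ccl4* (20303, 11:83648624-83664683) are on chromosome 11, as is *Cxcl16* (66102, 11:70454389-70459984). The RefSeq model of *Ccl4* overlaps *Ccl3* on the other strand, that of *Cxcl16* overlaps *Zmynd15*, and that of *Ccl6* overlaps *E230016K23Rik*. Whether reads were counted by strand is not given in the sources used here, so reads in those overlaps cannot be told apart. Of 36 pairs of members, 1 pair, *Cxcl2* and *Cxcl3*, has transcripts with an identical stretch of at least 100 bases, which covers 110 of the 1859 bases (5.92%) of the longest *Cxcl2* transcript.

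The 3 CXC ligands of Cxcr2 had their lowest values in BM and their highest in lung. *Cxcl2*, which encodes the ligand also called MIP-2, had an FPKM of 23.9, 23.3 and 25.2 in the BM libraries, 836, 918 and 562 in the PB libraries, and 11222, 10565 and 10947 in the lung libraries. No group overlapped another, and in each of the 3 lung libraries *Cxcl2* ranked 4 among all genes by FPKM. Its rank was 52 to 114 in the PB libraries and 2112 to 2237 in those of BM. The mean in lung was 14.1 times that in PB, a difference of 3.85 on the log2(FPKM + 1) scale (SE 0.16, limma adjusted p = 2.51e-07). PB in turn exceeded BM by 32.0 times (log2 difference 4.91, SE 0.16, limma adjusted p = 9.09e-08).

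*Cxcl3*, a closely related Cxcr2 ligand, was nearly silent outside the lung. Its FPKM was 0.102, 0.0508 and 0.321 in BM, from 2, 1 and 6 reads, and 2.94, 1.39 and 0.951 in PB, from 53, 26 and 18 reads. In lung it was 806, 777 and 783. Lung was 448 times PB in the mean (log2 difference 8.23, SE 0.22, limma adjusted p = 2.43e-08), the largest lung to PB difference among the 9 genes on this scale. The ratio of the means rested on few reads in PB and was 675 without PB replicate 1.

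*Cxcl1*, also called KC and a ligand of the same receptor, followed that pattern at a lower level. Each BM library held 1 read of it, the PB libraries held 4, 13 and 5 reads (0.237, 0.739 and 0.282 FPKM), and the lung libraries had 122, 122 and 110 FPKM from 1741 to 1994 reads. The lung mean was 281 times that of PB (log2 difference 6.40, SE 0.13, limma adjusted p = 5.96e-09), and 455 times without PB replicate 2. Because *Cxcl1* and *Cxcl3* are so low in PB, the log2(FPKM + 1) scale understates their differences. All 3 genes thus kept the order BM, PB, lung without overlap, and the steps between the tissues were of different size for each.

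*Cxcl16*, the membrane-bound CXC member, was present at a low level in lung only. It had 116, 142 and 128 reads in the lung libraries (2.69, 3.29 and 3.08 FPKM), 6, 0 and 0 reads in PB, and 0, 4 and 1 in BM. The lung to PB difference was 1.94 on the log2(FPKM + 1) scale (SE 0.09, limma adjusted p = 4.91e-07). PB and BM overlapped, and *Cxcl16*, like *Cxcl1* and *Cxcl3*, did not pass the low-value filter for the comparison of PB with BM.

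The sequences just before the start of *Cxcl1*, *Cxcl2* and *Cxcl3* are shown because these 3 genes encode ligands of the same receptor. Over the 17 sorted libraries, *Cxcl2* moved more closely with *Ccl3* (Pearson's r = 0.969) and *Ccl4* (0.929) than with *Cxcl3* (0.904) or *Cxcl1* (0.870). Promoters of 6 of the 9 members were found in RefSeq (GRCm38.p6), and the 140 bases before the start, 5′ to 3′ along the gene, are given for 5 of them. The windows are chr5:90891105-90891244 (plus strand) for *Cxcl1*, chr5:90903759-90903898 (plus strand) for *Cxcl2*, chr5:90785961-90786100 (plus strand) for *Cxcl3*, chr11:83649379-83649518 (minus strand) for *Ccl3* and chr11:83593088-83593227 (minus strand) for *Ccl6*. Capitals mark matches to the κB consensus, the site that NF-κB dimers bind, searched on both strands.
Cxcl1: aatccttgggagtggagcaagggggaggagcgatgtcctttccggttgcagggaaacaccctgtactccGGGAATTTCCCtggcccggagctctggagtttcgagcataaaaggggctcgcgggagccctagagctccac
Cxcl2: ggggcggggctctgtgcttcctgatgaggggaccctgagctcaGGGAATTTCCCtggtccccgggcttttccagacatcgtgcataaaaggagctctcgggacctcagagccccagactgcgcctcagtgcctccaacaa
Cxcl3: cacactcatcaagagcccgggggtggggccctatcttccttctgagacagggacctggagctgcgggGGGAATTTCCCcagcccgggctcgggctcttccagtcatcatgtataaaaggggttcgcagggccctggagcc
Ccl3: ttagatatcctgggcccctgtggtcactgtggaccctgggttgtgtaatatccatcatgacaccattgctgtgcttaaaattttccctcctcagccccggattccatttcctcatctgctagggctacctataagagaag
Ccl6: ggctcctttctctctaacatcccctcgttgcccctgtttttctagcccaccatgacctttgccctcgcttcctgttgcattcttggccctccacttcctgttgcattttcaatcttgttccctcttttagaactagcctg
All 3 CXC windows held the same letters, GGGAATTTCC, which overlap a second match on the other strand by all but 1 base. The match began 71 bases before the start of *Cxcl1*, 97 before *Cxcl2* and 73 before *Cxcl3*. The windows of *Ccl3* and *Ccl6* held none, and that of *Ccl9* held 1 match, 35 bases before its start. Of 27020 RefSeq promoters of the same length, 1097 (4.06%) held at least 1 match. These are matches of letters, and binding was not measured.

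*Ccl3* and *Ccl4*, which encode MIP-1α and MIP-1β and lie side by side, also rose stepwise. *Ccl3* had 2.44, 2.82 and 3.03 FPKM in BM, 50.3, 52.8 and 35.7 in PB, and 802, 751 and 767 in lung. Lung exceeded PB by 16.7 times (log2 difference 4.05, SE 0.13, limma adjusted p = 6.80e-08), and PB exceeded BM by 16.8 times (log2 difference 3.63, SE 0.14, limma adjusted p = 2.03e-07). *Ccl4* had 2.24, 2.46 and 2.90 FPKM in BM, 14.3, 17.5 and 14.7 in PB, and 83.3, 90.7 and 83.7 in lung. Its lung mean was 5.54 times that of PB (log2 difference 2.40, SE 0.08, limma adjusted p = 8.12e-08). In lung *Ccl3* stood about level with *Cxcl3* in FPKM, whereas *Ccl4* was below *Cxcl1*.

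*Ccl6* behaved differently: it was abundant in all 3 tissues and highest in PB. Its FPKM was 568, 544 and 548 in BM, 1405, 1354 and 1506 in PB, and 1012, 945 and 952 in lung, with no overlap between groups. PB exceeded BM by 2.57 times (log2 difference 1.36, SE 0.06, limma adjusted p = 3.43e-07). For lung against PB the log2 difference was -0.55 (SE 0.06, limma adjusted p = 5.47e-05), inside the fold threshold of 1, and it was 0.07 once FPKM was rescaled by the median ratio of genes. *Ccl6* supplied 94.6% of the summed FPKM of the 9 genes in BM and 7.10% in lung, where *Cxcl2* supplied 79.9%.

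*Ccl2*, the monocyte chemoattractant MCP-1, and *Ccl9* were low throughout. *Ccl2* had 0, 0 and 0.135 FPKM in BM, 1.61, 2.09 and 1.47 in PB, and 1.74, 2.17 and 1.73 in lung, and lung and PB overlapped (log2 difference 0.08, SE 0.11, limma adjusted p = 0.505). *Ccl9* had 1.94, 1.38 and 1.70 FPKM in BM, 4.92, 3.68 and 5.11 in PB, and 5.91, 5.81 and 6.29 in lung. PB exceeded BM for both, by 1.38 (SE 0.10, limma adjusted p = 7.36e-06) and 1.06 (SE 0.13, limma adjusted p = 0.000129) on the log2 scale. For lung against PB, *Ccl9* had a log2 difference of 0.34 (SE 0.11, limma adjusted p = 0.0192), and on recovered reads it was 1.02 with edgeR and 1.04 with DESeq2, which both called it. The *Ccl9* call for PB against BM dropped to 0.97 without BM replicate 2 and to 0.98 without PB replicate 3, just inside the threshold.

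In the count over all members, 6 of 9 were called higher and 0 lower in lung than in PB. A call needed an adjusted p under 0.05 together with a log2 difference over 1 in size. By that rule 7.75% of 7577 genes tested were called higher and 27.2% in either direction. Against BM, 8 of 9 members were called higher in lung, beside 9.86% of 8236 genes higher and 45.9% in either direction. Of those 8, *Cxcl1*, *Cxcl3*, *Cxcl16* and *Ccl2* were under 1 FPKM in BM and passed the low-value filter through lung alone, and without any 1 lung library, with the filter recomputed, 4 of 5 members tested were called. From BM to PB, 6 of the 6 members that passed the filter were called higher, beside 7.85% of 8237 genes higher and 22.0% in either direction. Of those 6, *Ccl2* was under 1 FPKM in BM and passed the low-value filter through PB alone. Without any 1 PB library, with the filter recomputed, 5 members were tested and 4 or 5 were called. These comparisons share libraries. The median log2 difference of the members was 2.40 for lung against PB, and that of all genes tested was -0.54. Rescaling FPKM by the median ratio brought the latter to -0.02 and turned the split of calls from 587 higher and 1476 lower to 920 higher and 466 lower. It left 6 members called higher. Without any 1 lung library, and with the low-value filter recomputed on the rest, 4 members were called, because the 2 genes seen above 1 FPKM in lung only, *Cxcl1* and *Cxcl16*, were then not tested. For lung against BM the split went from 812 higher and 2965 lower to 1563 and 1174, and 9 members were then called higher.

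**Figure D1:**
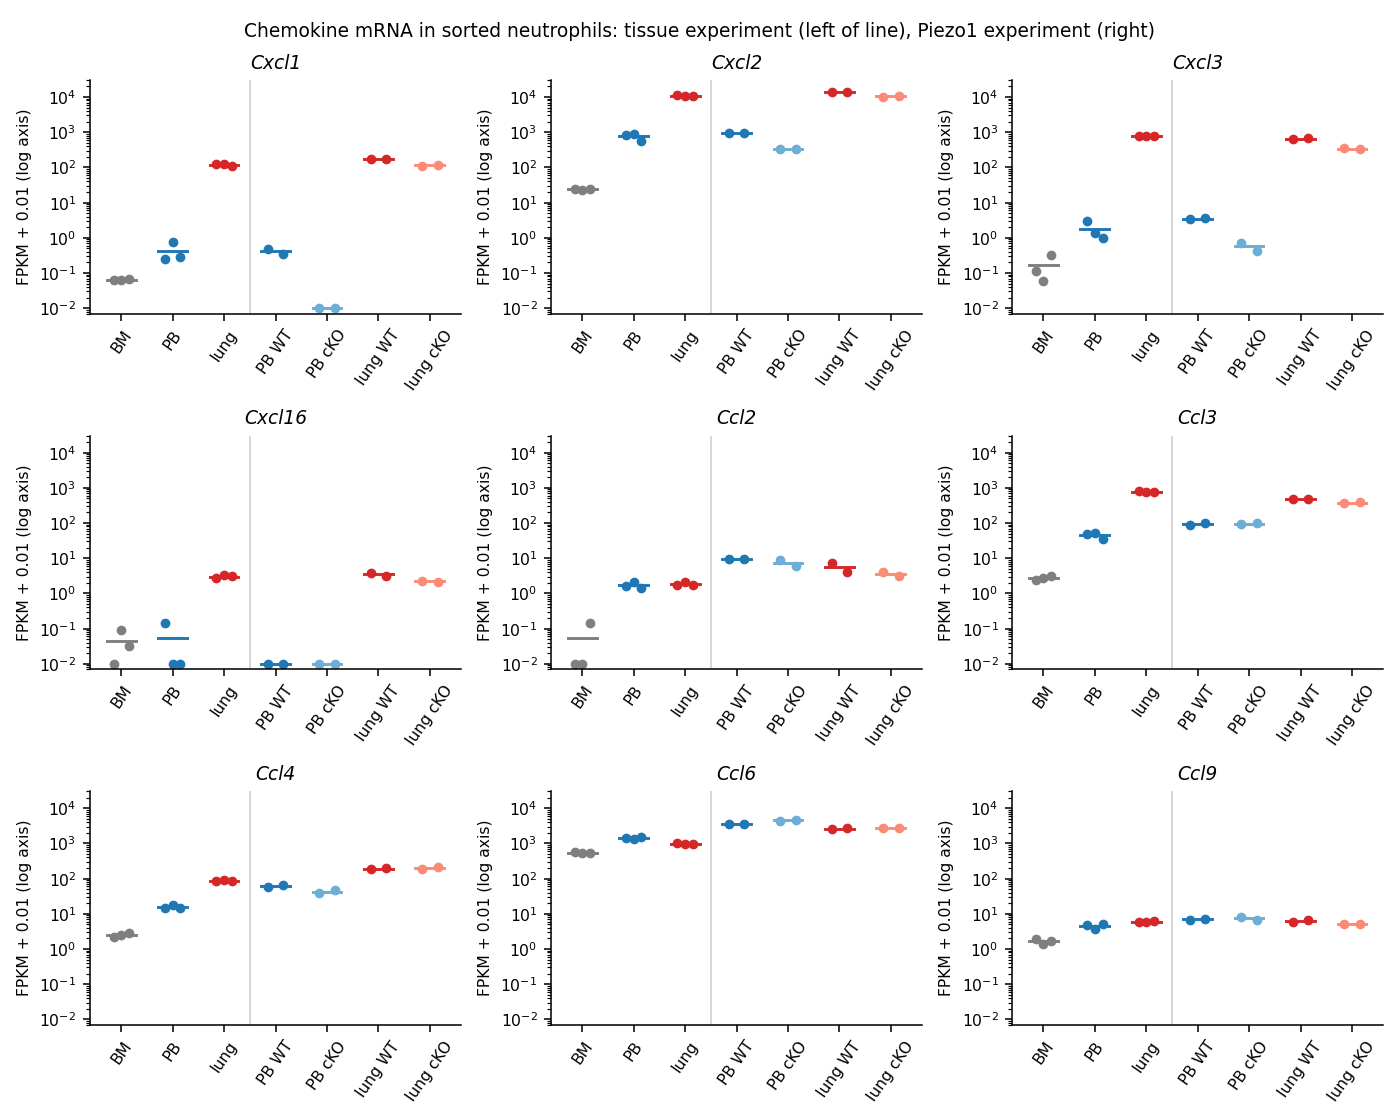
FPKM + 0.01 (log axis) of each chemokine in each library of sorted neutrophils, with points for libraries and lines for group means; the tissue experiment (3 libraries per group) is left of the grey line and the Piezo1 experiment (2 per group) right of it. Points at 0.01 are libraries at 0. *Cxcl2* ranges from 23.3 FPKM in BM to 11222 FPKM in lung, and *Ccl6* stays between 544 and 4750 FPKM.

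Summed over the 9 genes, the chemokine mRNA level was 585 ± 12.8 FPKM in BM, 2264 ± 121 in PB and 13658 ± 398 in lung (mean ± SD, n = 3). As a share of all FPKM in a library this was 0.118% ± 0.000499 in BM, 0.541% ± 0.0503 in PB and 3.30% ± 0.0611 in lung (SD, n = 3). The sum in lung was 6.03 times that in PB, and 9.30 times after rescaling by the median ratio. In the Piezo1 experiment the share in WT lung was 3.29% ± 0.0185 and that in WT PB 0.822% ± 0.00557 (SD, n = 2). *Cxcl2* supplied 76.8% of the sum in WT lung there, and *Ccl6* 76.7% of the sum in WT PB.

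The second set of WT mice allowed the lung to PB comparison to be made again in other libraries. The same 6 members, *Cxcl1*, *Cxcl2*, *Cxcl3*, *Cxcl16*, *Ccl3* and *Ccl4*, were called higher in lung (7.5% of 7143 genes were called higher and 34.0% in either direction). Of these, *Cxcl1* and *Cxcl16* were under 1 FPKM in PB and passed the low-value filter through lung alone, and 4 members were called higher without either WT lung library once the filter was recomputed. *Cxcl2* had 925 and 944 FPKM in PB and 13892 and 13832 FPKM in lung, a log2 difference of 3.89 (SE 0.01, limma adjusted p = 1.51e-11) beside 3.85 in the tissue experiment. *Cxcl1* had 6 and 5 reads in PB against 170 and 172 FPKM in lung (log2 difference 6.93, SE 0.07, limma adjusted p = 4.50e-10). *Cxcl3* had 3.35 and 3.66 FPKM in PB and 649 and 669 in lung, 188 times as much in the mean (log2 difference 7.19, SE 0.05, limma adjusted p = 9.23e-11). *Cxcl16* had no read in either PB library and 145 and 119 reads in lung, which was at least 41.3-fold higher, taking 3 reads for each PB library as the limit of a 0.

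The CC members of that set were less uniform. *Ccl3* had 85.4 and 101 FPKM in PB and 484 and 497 in lung (log2 difference 2.39, SE 0.07, limma adjusted p = 9.82e-08), and *Ccl4* had 56.6 and 66.9 in PB and 194 and 195 in lung (1.64, SE 0.07, limma adjusted p = 5.82e-07). *Ccl6* had 3681 and 3642 FPKM in PB and 2628 and 2695 in lung, a log2 difference of -0.46 (SE 0.02, limma adjusted p = 2.66e-07) that became 0.27 after rescaling. *Ccl2* was at 9.51 and 9.75 FPKM in PB and at 7.16 and 4.13 in lung (-0.72, SE 0.19, limma adjusted p = 0.00944). *Ccl9* was at 6.78 and 7.11 FPKM in PB and at 6.05 and 6.57 in lung (-0.12, SE 0.08, limma adjusted p = 0.178). After rescaling, the *Ccl9* difference was 0.51. Neither gene passed the fold threshold. Without WT lung replicate 1 the *Ccl2* difference was -1.05 and passed it.

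**Figure D2:**
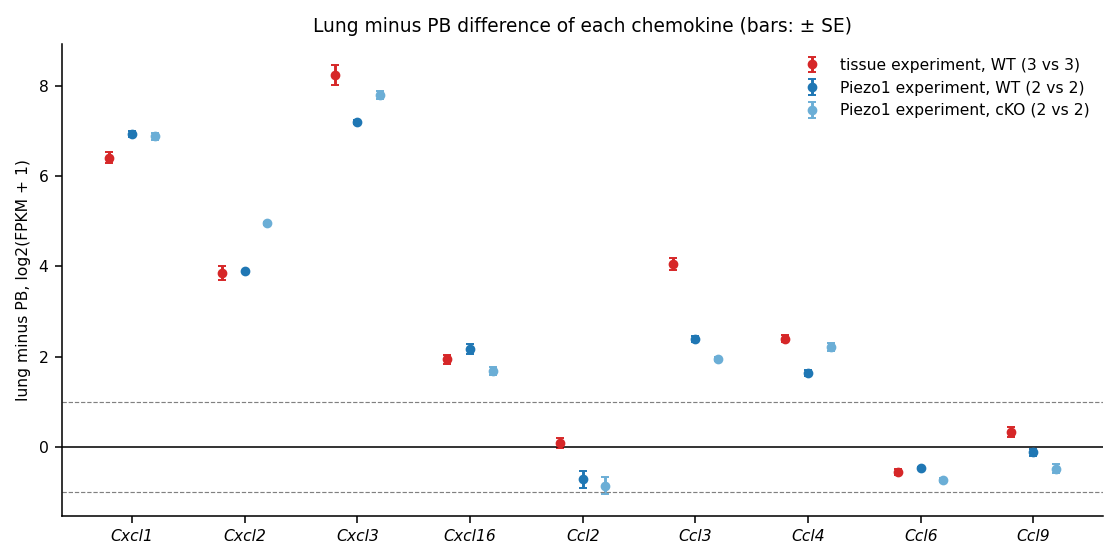
Lung minus PB difference of log2(FPKM + 1) for each chemokine (y axis) in the tissue experiment, in WT mice and in *Piezo1*-cKO mice of the Piezo1 experiment, with bars for ± SE and dashed lines at the threshold of 1. *Cxcl2* sits at 3.85, 3.89 and 4.96, and *Ccl6* is below 0 in each.

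*Piezo1* encodes a mechanically gated cation channel, and the comparison of *Piezo1*-cKO with WT asks how its loss bears on neutrophils in lung and PB. *Piezo1* itself had 8 reads in each WT lung library and 7 and 4 in cKO lung. Its PB libraries held 5 reads each in WT and 3 and 10 in cKO. So few reads, counted over the whole gene and not over the deleted exons, do not check the genotype labels.

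In cKO lung neutrophils the 3 Cxcr2 ligands stayed high, with lower values than in WT. *Cxcl3* had 353 and 335 FPKM against 649 and 669 in WT (log2 difference -0.94, SE 0.03, limma adjusted p = 1.15e-05). *Cxcl1* had 113 and 120 against 170 and 172 (-0.56, SE 0.04, limma adjusted p = 0.000103), and *Cxcl2* had 10278 and 10668 against 13892 and 13832 (-0.40, SE 0.02, limma adjusted p = 3.02e-05). For each of them both cKO libraries were below both WT libraries.

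Of the other members of cKO lung, 3 passed the adjusted p. *Cxcl16* had 2.21 and 2.17 FPKM against 3.87 and 3.14 (-0.49, SE 0.11, limma adjusted p = 0.00841), *Ccl3* had 363 and 385 against 484 and 497 (-0.39, SE 0.03, limma adjusted p = 0.000194), and *Ccl9* had 5.01 and 5.08 against 6.05 and 6.57 (-0.27, SE 0.08, limma adjusted p = 0.0265). *Ccl4* had 190 and 213 against 194 and 195 (0.05, SE 0.05, limma adjusted p = 0.444), *Ccl6* had 2718 and 2737 against 2628 and 2695 (0.04, SE 0.02, limma adjusted p = 0.136), and *Ccl2* had 4.13 and 3.04 against 7.16 and 4.13 (-0.51, SE 0.24, limma adjusted p = 0.132). After rescaling, the differences of *Ccl4* and *Ccl6* were -0.06 and -0.08.

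With the fold threshold of 1, limma called 0 of 9 members in cKO lung, edgeR and DESeq2 on the recovered reads each called 1, *Cxcl3* (-1.05 in both, and -1.05 with limma after rescaling), and 0.995% of 6434 genes were called by limma in either direction. At an unadjusted p below 0.05, 6 of 9 members passed, as did 57.4% of all genes tested. The same 6 passed the adjusted p alone, all lower in cKO, beside 15.8% of genes that passed it and were lower. All libraries of cKO were below all of WT for those 6 members, as for 26.3% of the 14990 genes with any value above 0. The median log2 difference was -0.40 over the members and 0.09 over all genes tested. The share of the library's FPKM taken by the 9 genes was 2.76% and 2.81% in cKO lung against 3.30% and 3.28% in WT lung.

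In PB the loss of *Piezo1* went with lower *Cxcl2* and *Cxcl3*. *Cxcl2* had 335 and 338 FPKM in cKO against 925 and 944 in WT, so that WT was 2.78 times cKO (log2 difference -1.47, SE 0.04, limma adjusted p = 3.08e-06). *Cxcl3* had 0.715 and 0.416 FPKM (7 and 6 reads) against 3.35 and 3.66 (45 and 56 reads), with a WT to cKO ratio of 6.20 (-1.53, SE 0.13, limma adjusted p = 0.000361). *Cxcl1* had 0 and 0 reads in cKO and 6 and 5 in WT, and did not pass the low-value filter. All 3 ligands were therefore lower in each cKO library of PB than in each WT library, 2 of them past the test.

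No CC chemokine passed both thresholds in PB. *Ccl6* had 4362 and 4750 FPKM in cKO PB against 3681 and 3642 (0.31, SE 0.05, limma adjusted p = 0.00188), and *Ccl4* had 38.8 and 46.2 against 56.6 and 66.9 (-0.53, SE 0.10, limma adjusted p = 0.00593), both inside the fold threshold. *Ccl3* had 93.5 and 98.4 against 85.4 and 101 (0.04, SE 0.08, limma adjusted p = 0.673), *Ccl9* had 8.12 and 6.83 against 6.78 and 7.11 (0.09, SE 0.10, limma adjusted p = 0.472), and *Ccl2* had 8.77 and 5.96 against 9.51 and 9.75 (-0.37, SE 0.15, limma adjusted p = 0.0797). *Cxcl16* had 0 reads in all 4 PB libraries. With *Cxcl2* down and *Ccl6* at its highest level of any group, *Cxcl2* supplied 6.68% of the summed FPKM in cKO PB and *Ccl6* supplied 90.3%.

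Of 7 members tested in PB, 2 were called lower and 0 higher in cKO, whereas 1.97% of 7256 genes were called lower and 3.65% in either direction. Every cKO library was below every WT library for 5 of 9 members, as for 40.8% of the 16021 genes with any value above 0. Both calls stood without any 1 of the 4 libraries where the genes tested were kept. With the low-value filter recomputed, 1 call was left without WT PB replicate 1 and without WT PB replicate 2, since *Cxcl3* was then not tested. The cKO PB libraries had 9621071 and 14161228 reads against 13183311 and 15015716 in WT. The erythroid markers, led by *Hba-a1*, summed to 910 and 972 FPKM in cKO PB and to 20.8 and 20.9 FPKM in WT PB, and the 13 macrophage and monocyte markers to 592 to 594 and 499 to 515 FPKM. Their part in the chemokine results was not tested.

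**Figure D3:**
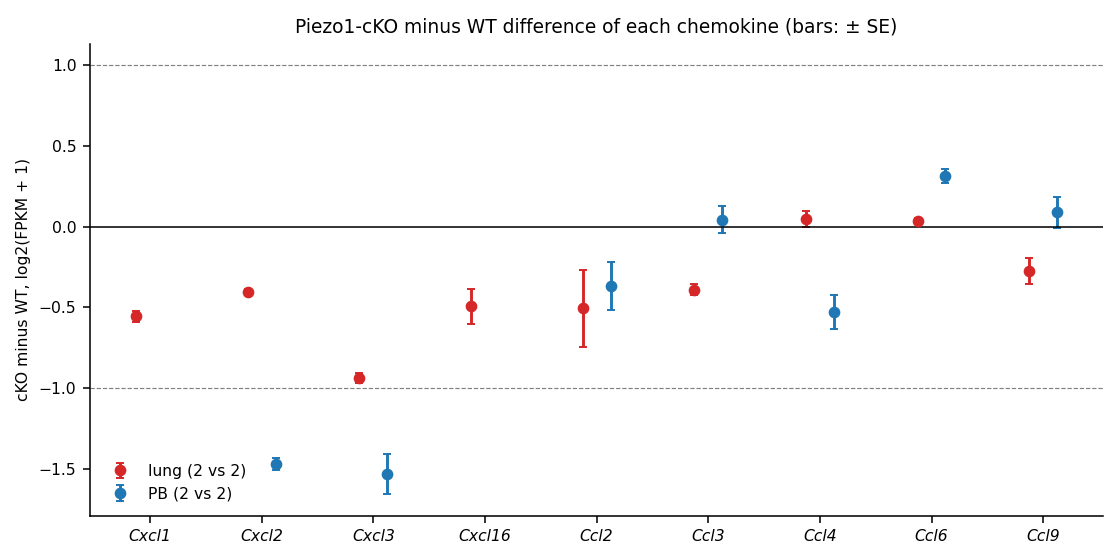
*Piezo1*-cKO minus WT difference of log2(FPKM + 1) for each chemokine (y axis) in lung and in PB, 2 libraries per group, with bars for ± SE and dashed lines at the threshold of 1. *Cxcl2* is at -0.40 in lung and -1.47 in PB, *Cxcl3* at -0.94 and -1.53, and *Cxcl1* and *Cxcl16* were not tested in PB.

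The genotype effect was then compared between the tissues by an interaction term, the effect in lung minus that in PB. On the log2(FPKM + 1) scale it was 1.07 for *Cxcl2* (SE 0.03, limma adjusted p = 1.46e-06), whose difference was larger in size in PB. *Cxcl3* (0.60, SE 0.12, limma adjusted p = 0.00393) and *Ccl4* (0.58, SE 0.14, limma adjusted p = 0.00919) had the same sign. *Ccl3* (-0.43, SE 0.10, limma adjusted p = 0.00778), *Ccl6* (-0.28, SE 0.05, limma adjusted p = 0.00258), *Ccl9* (-0.36, SE 0.13, limma adjusted p = 0.0409) and *Cxcl16* (-0.49, SE 0.14, limma adjusted p = 0.0171) had the opposite one, the last with no read in PB. Thus 7 of 9 members passed, beside 48.2% of 7560 genes. The *Cxcl16* call was lost with edgeR, DESeq2, a pseudocount of 0.1 and without WT lung replicate 1. The *Ccl9* call was lost without the low-value filter, with the replicate number as a block (limma adjusted p = 0.0539) and without any 1 of 6 of the 8 libraries. With a threshold of 1 on the difference, *Cxcl2* alone passed on that scale. The order depended on how low reads were treated. *Cxcl3* was at 1.54 with a pseudocount of 0.1 and at 1.67 with edgeR. *Cxcl1*, at 6, 5, 0 and 0 reads in PB, was at -0.06 (limma adjusted p = 0.628) and became 1.79 with a pseudocount of 0.1, 4.50 with edgeR and 3.96 with DESeq2.

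Lung neutrophils of cKO mice kept the lung to PB gradient. The 6 members called higher in WT lung were also called in cKO (7.93% of 7163 genes were called higher and 30.9% in either direction). Of these 6, *Cxcl1*, *Cxcl3* and *Cxcl16* were under 1 FPKM in cKO PB and passed the low-value filter through lung alone, and without either cKO lung library, with the filter recomputed, 3 were called higher. *Cxcl2* in lung was 31.1 times that in PB in cKO and 14.8 times in WT (log2 differences 4.96, SE 0.03, limma adjusted p = 6.80e-09, and 3.89). *Cxcl3* in lung was 609 times that in PB in cKO, from the 7 and 6 reads in PB, and *Cxcl1* was at least 424-fold higher, with each PB library set at 3 reads. *Cxcl16* was at least 21.1-fold higher by the same rule. *Ccl6* (-0.74, SE 0.05, limma adjusted p = 1.10e-05), *Ccl2* (-0.86, SE 0.19, limma adjusted p = 0.00479) and *Ccl9* (-0.48, SE 0.10, limma adjusted p = 0.0032) had lower values in lung than in PB. Rescaling made the *Ccl9* difference 0.06, and the *Ccl2* difference passed the threshold without cKO PB replicate 2 (-1.10) or cKO lung replicate 1 (-1.03).

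Other genes of the chemokine system were examined in lists that hold none of the 9. Among receptors and decoys, *Ccrl2*, an atypical receptor that binds chemerin, was called higher in lung than in PB (log2 difference 3.57, SE 0.06, limma adjusted p = 1.49e-09), while *Cxcr2*, the receptor of Cxcl1, Cxcl2 and Cxcl3, was called lower (-1.95, SE 0.05, limma adjusted p = 2.60e-08), as was *Cxcr1* (-1.02, SE 0.09, limma adjusted p = 1.37e-05). With edgeR, which scales libraries by another rule, the log2 differences were 4.21, -1.33 and -0.47, so that *Cxcr1* fell inside the threshold. *Ccrl2* had a mean of 1.98 FPKM in BM, 92.6 in PB and 1109 in lung, and *Cxcr2* had 577, 1001 and 258. In all, 1 of 5 tested genes of this list was called higher and 2 lower, beside 7.75% of all genes higher and 27.2% in either direction. Of 27 other chemokine ligands only *Cxcl10*, an interferon-induced ligand of Cxcr3, passed the filter in the tissue experiment, and it was called higher in lung than in PB (1.94, SE 0.15, limma adjusted p = 6.01e-06). In cKO PB *Ccrl2* was called lower than in WT (-1.38, SE 0.06, limma adjusted p = 3.62e-05). *Ccl7*, a monocyte chemoattractant, had 0 reads in both WT PB libraries and 12 and 15 reads in those of cKO (1.06 and 1.95 FPKM), and it passed the low-value filter through cKO alone.

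Genes of NF-κB and AP-1 factors and of their inhibitors moved with tissue, and their part in the chemokine levels was not tested. Of 20, 13 were called higher and 1 lower in lung than in PB, with a list median of 1.52 beside -0.54 over all genes. The share of all genes tested was 7.75% called higher and 27.2% in either direction. The largest differences were in *Nfkbie* (5.19, SE 0.05, limma adjusted p = 5.69e-10), an inhibitor of NF-κB, *Fosl1* (5.05, SE 0.15, limma adjusted p = 3.47e-08), an AP-1 subunit, and *Tnfaip3* (3.33, SE 0.10, limma adjusted p = 3.89e-08), which encodes the NF-κB brake A20. On recovered reads with edgeR they were 5.95, 7.25 and 3.96, and 16 of the 20 genes were called. All 20 passed the low-value filter for lung against PB, and 19 did so for PB against BM. In WT mice of the Piezo1 experiment 13 were called higher and 1 lower, beside 7.5% of all genes higher and 34.0% in either direction. Between cKO and WT PB 0 of 19 were called by limma, edgeR or DESeq2, 16 had an unadjusted p below 0.05 beside 56.9% of all genes, and the list median was -0.34 beside 0.02 over all genes. In cKO lung 0 of 20 were called by these tools, 15 had an unadjusted p below 0.05 beside 57.4% of all genes, and the median was 0.01.

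Of 10 factors that set mRNA stability, 1 of the 9 tested was called higher in lung than in PB, *Zc3h12a* (2.48, SE 0.12, limma adjusted p = 4.28e-07), which encodes the ribonuclease Regnase-1, and 2 were called lower, *Zfp36l2* (-2.05, SE 0.07, limma adjusted p = 1.07e-07) and *Khsrp* (-1.64, SE 0.06, limma adjusted p = 1.16e-07). With edgeR these were 3.11, -1.44 and -1.22. By limma 7.75% of all genes were called higher and 27.2% in either direction. Since the lung cells were digested, 12 genes that respond to cell dissociation and heat were counted too. In lung against PB 2 of 12 were called higher, *Nr4a1* (2.63, SE 0.09, limma adjusted p = 8.27e-08) and *Ier3* (2.02, SE 0.08, limma adjusted p = 1.44e-07), and 2 lower. With edgeR *Nr4a1* was at 3.26 and *Ier3* at 2.65, and 4 of 12 were called in all. *Ier2*, called lower by limma (-1.16), was at -0.54 with edgeR, inside the threshold. By limma the list median was -0.14 beside -0.54 over all genes, of which 7.75% were called higher and 27.2% in either direction. In PB against BM 10 of 12 were called higher and 0 lower, with a list median of 1.70 beside -0.12 over all genes. Lung against BM had 8 called higher and 0 lower, with a list median of 2.00 beside -0.70. Of all genes tested, 7.85% were called higher for PB against BM and 9.86% for lung against BM. Between cKO and WT PB 1 of 11 was called, *Hspe1*, higher in cKO (1.15, SE 0.16, limma adjusted p = 0.00143), beside 3.65% of all genes. In cKO lung limma called 0 of 11. For the interaction 5 of 11 passed with a positive sign and 1 with a negative one, beside 48.2% of all genes. The part of handling in the chemokine levels was not tested.

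Over the 17 libraries of sorted neutrophils, the 2 genes whose log2(FPKM + 1) was most like each member were found among 6228 genes with a mean of at least 5 FPKM in some group. The libraries share tissue and experiment, so the values are a description. *Cxcl2* was most like *Ccrl2* (Pearson's r = 0.998) and *Fem1c* (0.994), *Cxcl1* was most like *Bhlhe40* (0.999) and *Traf1* (0.998), and *Cxcl3* was most like *Odc1* (0.993) and *Srrd* (0.992). For *Ccl3* they were *Slc2a6* (0.990) and *Entpd1* (0.988), and for *Ccl4* *Cd69* (0.993) and *Hnrnph2* (0.992). *Ccl6* was nearest to *Map1lc3b* (0.996) and *Ftl1* (0.995), *Ccl2* to *Il10rb* (0.981) and *Il15* (0.975), and *Ccl9* to *Iscu* (0.974) and *Hnrnpc* (0.968). *Cxcl16* did not reach 5 FPKM in any group. Among the members, r was 0.990 for *Cxcl1* with *Cxcl3*, 0.969 for *Cxcl2* with *Ccl3* and 0.940 for *Ccl2* with *Ccl6*, against 0.061 for *Cxcl1* with *Ccl6*.

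Whole lung was sequenced after the control antibody and after neutrophil depletion. *Ly6g*, whose protein the antibody binds, was too low to check the depletion, at 0.0683, 0.577 and 0.0710 FPKM in control lungs and 0.0748, 0 and 0.118 in depleted lungs. *S100a8*, a neutrophil marker gene, had 41.2, 35.0 and 35.1 FPKM in control and 20.2, 14.3 and 6.78 in depleted lungs (log2 difference -1.48, SE 0.33, limma adjusted p = 0.192). The means of the 8 neutrophil markers in depleted lungs were 24.5% (*Mmp9*) to 72.3% (*Itgam*) of control. None of those tested was called. In such bulk tissue, fewer cells of a type and less RNA per cell cannot be told apart. For this antibody the paper reports, by flow cytometry, efficient loss of neutrophils from PB and lung.

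Most of the chemokines that were abundant in sorted lung neutrophils were near 0 in whole lung. *Cxcl2* had 0.186, 0.198 and 0.256 FPKM in control lungs and 0.162, 0 and 0.0979 in depleted lungs. *Cxcl3* had 0.147, 0.229 and 0.244 in control and 0.0942, 0.112 and 0.0477 in depleted lungs. *Ccl2*, which was low in sorted lung neutrophils too, had 0.532, 0.533 and 0.881 in control and 0.172, 0.0993 and 0.288 in depleted lungs. For these 3 genes every depleted lung was below every control lung.

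*Ccl4*, with 2.28, 1.64 and 2.02 FPKM in control and 1.58, 0.840 and 0.574 in depleted lungs, did not overlap either, with a log2 difference of -0.60 (SE 0.20, limma adjusted p = 0.327). *Cxcl1* had 0.0897, 0.289 and 0.378 in control and 0.224, 0.312 and 0.113 in depleted lungs, and *Ccl3* had 0.994, 0.395 and 2.61 in control and 1.12, 0.469 and 0.572 in depleted lungs. Both overlapped widely.

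The remaining 3 members were higher in whole lung and varied little with depletion. *Ccl6* had 128, 135 and 155 FPKM in control and 129, 153 and 147 in depleted lungs (0.04, SE 0.10, limma adjusted p = 0.920). *Cxcl16* had 19.9, 20.6 and 20.8 in control and 16.6, 20.6 and 16.99 in depleted lungs (-0.17, SE 0.09, limma adjusted p = 0.545), and *Ccl9* had 9.38, 8.68 and 8.66 in control and 8.73, 10.99 and 7.37 in depleted lungs (0.00, SE 0.13, limma adjusted p = 0.998). All 3 overlapped between the groups.

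Only *Cxcl16*, *Ccl4*, *Ccl6* and *Ccl9* passed the low-value filter in whole lung. By limma 0 of these 4 were called (1 of them, *Ccl4*, had an unadjusted p below 0.05, as did 11.2% of all genes tested), beside 0.00715% of 13990 genes, which is 1 gene. Without the filter the smallest adjusted p among the members was 0.492, for *Ccl2* (log2 difference -0.47, SE 0.12). Every depleted lung was below every control lung for 4 of 9 members, as for 8.12% of the 28886 genes with any value above 0.

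**Figure D4:**
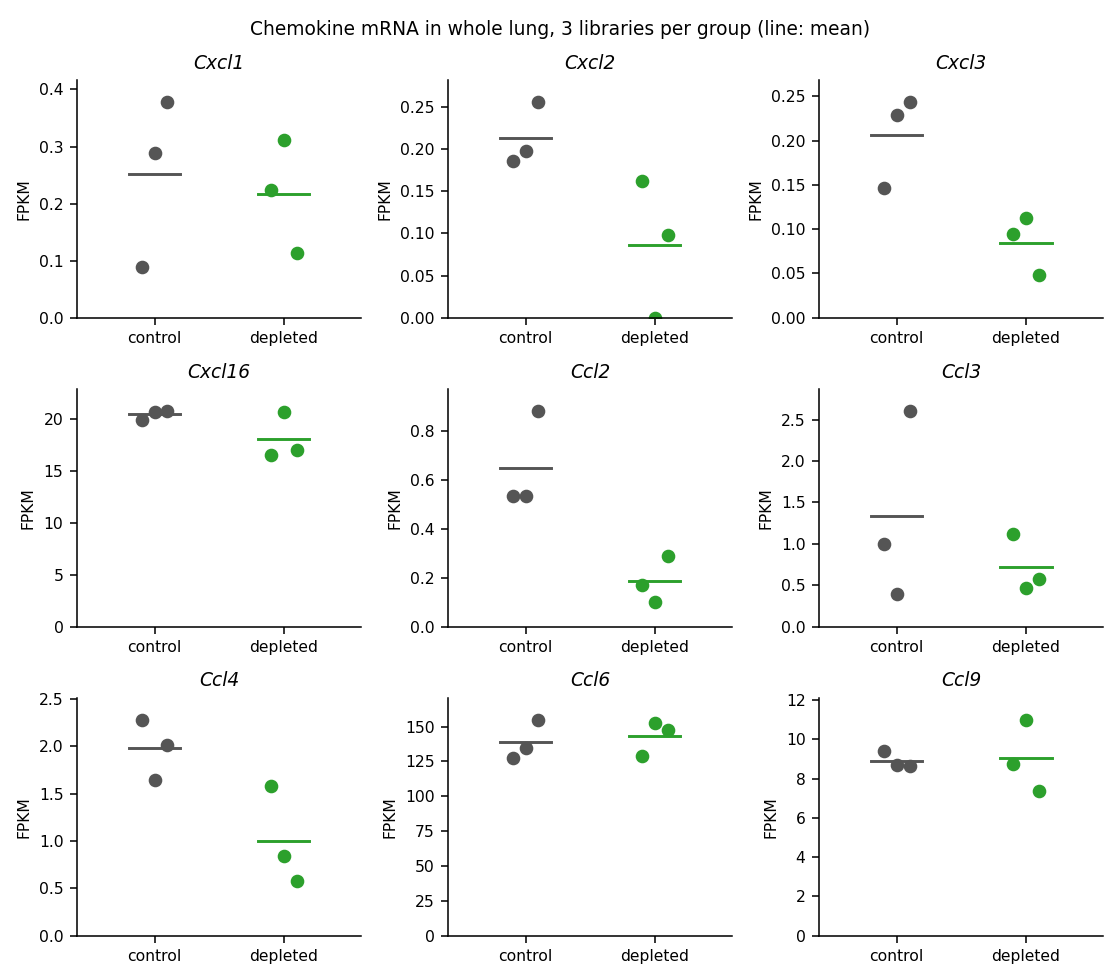
FPKM of each chemokine in whole lung of control and depleted mice, with points for the 3 libraries and lines for group means (y axes start at 0 and differ between panels). The groups of *Cxcl2*, *Cxcl3*, *Ccl2* and *Ccl4* do not overlap, and *Ccl6* lies between 128 and 155 FPKM in both.

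Set beside sorted lung neutrophils of the tissue experiment, the members differed widely in how much of their level whole lung showed. The tables were normalized separately, so the percentages are side by side and not tested. *Cxcl2* in control whole lung was 0.00195% of its FPKM in sorted lung neutrophils and *Cxcl3* was 0.0262%. For *Cxcl1* the percentage was 0.214%, for *Ccl3* 0.172% and for *Ccl4* 2.30%. The 8 neutrophil markers lay between 0.196% (*S100a8*) and 2.12% (*Retnlg*), with *Ly6g* at 0.438%. *Cxcl2*, *Cxcl3* and *Ccl3* were thus below all 8 markers on this measure. *Ccl6* was at 14.4%, *Ccl2* at 34.6%, *Ccl9* at 148% and *Cxcl16* at 677%, which like *Ccl4* were above all 8. Sorted WT lung of the Piezo1 experiment had means of 51841 FPKM for *S100a8*, 491 for *Ccl3* and 194 for *Ccl4*. In the tissue experiment these were 18900, 773 and 85.9 FPKM. Set against the Piezo1 experiment, *Ccl3* was not below *S100a8*, and *Ccl4* was not above all 8 markers. In whole lung all 13 macrophage and monocyte markers and all 6 alveolar macrophage markers had a mean of at least 1 FPKM.

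**Figure D5:**
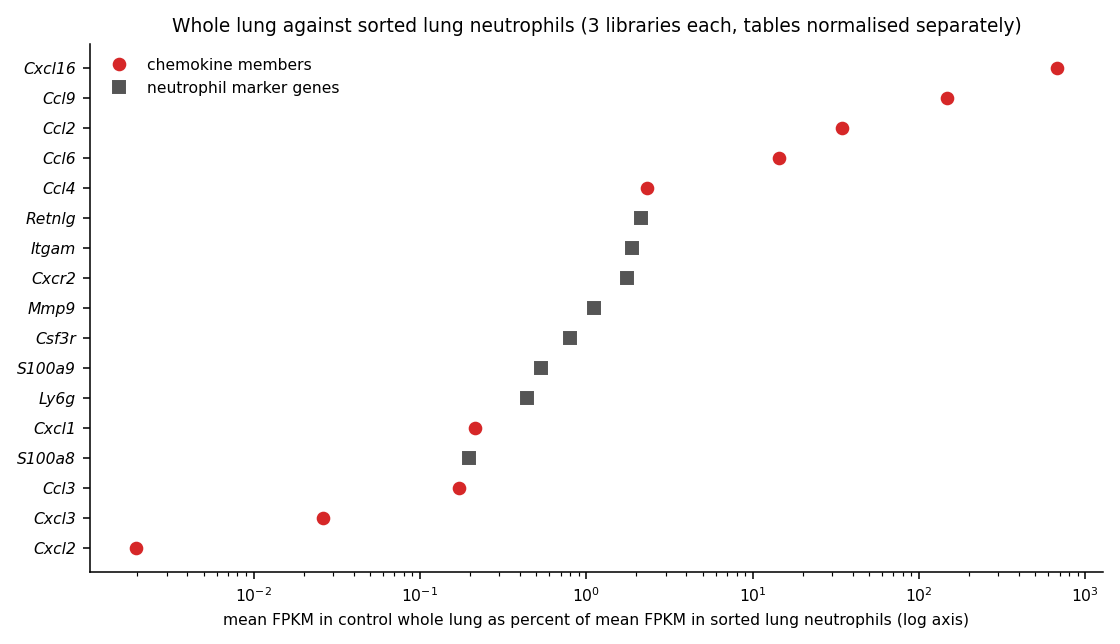
Mean FPKM in control whole lung as a percent of the mean FPKM in sorted lung neutrophils (x axis, log scale) for the chemokines (circles) and 8 neutrophil marker genes (squares), 3 libraries each, from tables normalized separately. *Cxcl2* lies lowest at 0.00195%, the markers lie between 0.196% and 2.12%, and *Cxcl16* lies highest at 677%.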

How the data were processed

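Per the labels, the authors trimmed reads with fastp, aligned them to mm10 with HISAT2 and counted them with HTSeq. The deposited values are FPKM per gene and library. Reads were recovered from the FPKM of the 17 sorted libraries, and 100.0% of values came out whole (tolerance 0.1). The signal columns that the authors deposited for the 4 groups of the Piezo1 experiment, means of counts divided by size factors, served to restore a shared divisor in 689 genes and to check the reads of those groups (6 of 53303 values differed). The authors' columns of fold changes, p-values and q-values were not used. The labels and the study's methods name different library kits.

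Samples were grouped by label. The study gives 3 mice for the tissue libraries, and whether lung, PB and BM came from the same mice is not stated. The main fits took no account of such pairing. Separate animals are not stated for the libraries of the other experiments in the sources used here, and there p-values measure the spread between libraries, which may be technical. The main fit was limma 3.58.1 (R 4.3.3, trend and robust) on log2(FPKM + 1), over genes at 1 FPKM or more in at least 3 libraries (2 for the Piezo1 mice), and p-values were adjusted over all genes tested by the method of Benjamini and Hochberg. Calls needed an adjusted p under 0.05 together with a log2 difference over 1 in size (0.5 in whole lung), and interactions the adjusted p only. Other settings tried were a pseudocount of 0.1, unfiltered genes, FPKM after median-ratio rescaling, a replicate block, other thresholds, 1 fit per experiment, edgeR 4.0.16 and DESeq2 1.42.0 on recovered reads, and each library left out (for ratios of group means as well, added after seeing the data). Leave-one-out fits first recomputed the low-value filter. After their counts had been seen, the genes tested were held fixed, and both versions are given. Tested on simulated data with 200 changed genes, the fits of 2 groups recovered 99.5% to 100.0% of them. Of the genes called there, 5.69% were unchanged ones in the whole-lung fit and 0.0% in the other fits. The simulated noise was normal with the fitted spread. The changed genes were not low ones, and all were shifted by the same amount, past the fold threshold. Recovery of smaller changes and of low genes was thus not tested. A count of 0 allows up to 3 reads, and such limits cover counting error only.

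The members, gene lists and marker lists were chosen with earlier results of these data known. Named besides the members are the 2 genes most like each member and, for each list, the largest changes called. Figures used Python 3.11.15 and matplotlib 3.10.9.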

Additional observations from a re-analysis of the deposited data

Results flagged for a closer look

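The *Piezo1*-cKO effect on 7 of the 9 chemokines differed between lung and PB by the interaction test, given as the effect in lung minus that in PB on the log2(FPKM + 1) scale. It was 1.07 for *Cxcl2*, 0.60 for *Cxcl3*, 0.58 for *Ccl4*, -0.49 for *Cxcl16*, -0.43 for *Ccl3*, -0.28 for *Ccl6* and -0.36 for *Ccl9*. Of all genes tested 48.2% passed the same test. *Cxcl16* had no read in any PB library of the Piezo1 mice, so its value is that of lung alone. The *Ccl9* value (limma adjusted p = 0.0409) still passed without cKO PB replicate 2 or without WT lung replicate 1, and it missed the threshold without any 1 of the other 6 libraries.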

How the results depend on the processing

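Counts of members called kept within 1.5 times of the reported ones under every setting run, with the exceptions given here, whose causes were not tested unless stated. In cKO against WT lung the count of 0 became 1 after rescaling, 1 with edgeR, 1 with DESeq2 and 6 with the adjusted p alone, and in cKO against WT PB the count of 2 became 4 with the adjusted p alone. The interaction count of 7 became 1 with a difference above 1 required. The ratio of the summed FPKM in lung to that in PB went from 6.03 to 9.30 after rescaling. Leaving out 1 library, with the genes tested kept or the low-value filter recomputed, gave 4 to 6 members for lung against PB, 4 to 8 for lung against BM, 4 to 6 for PB against BM, 1 to 2 for cKO against WT PB, 4 to 7 for lung against PB in WT, 3 to 7 in cKO, 6 to 7 for the interaction and 0 in both other comparisons. The low ends came with the recomputed filter, which tests fewer genes, and keeping the genes was chosen after those counts had been seen. A lone library left in a group was assumed to vary like the others.

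Rescaling, edgeR and DESeq2 turned the sign of *Ccl6* for lung against PB in the tissue experiment (0.072, 0.072 and 0.090) and in WT (0.27, 0.26 and 0.28), of *Ccl9* in WT (0.51, 0.58 and 0.60) and in cKO (0.056, 0.065 and 0.091), and of *Ccl4* (-0.062, -0.062 and -0.059) and *Ccl6* (-0.077, -0.078 and -0.076) in cKO against WT lung. *Cxcl1* in the interaction was 1.79 with a pseudocount of 0.1, 4.50 with edgeR and 3.96 with DESeq2. With a library left out, values ran from -0.031 to 0.13 for *Ccl4* in cKO lung, from -0.078 to 0.17 for *Ccl3* and -0.020 to 0.20 for *Ccl9* in cKO PB, from -0.12 to 0.0060 for *Cxcl1* and -0.48 to 0.20 for *Ccl2* in the interaction, and from -0.018 to 0.12 for *Ccl6* and -0.13 to 0.13 for *Ccl9* in whole lung. The *Cxcl16* interaction was not called with edgeR, DESeq2, a pseudocount of 0.1 or without WT lung replicate 1.

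Replicate numbers were not shown to pair the libraries (same-number correlations of -0.102 to 0.106). With the replicate number as a block, 6 members passed the interaction test, *Ccl9* being lost (limma adjusted p = 0.0539), and the members called in the other comparisons were as many as without the block. Depth limits *Cxcl1*, *Cxcl3* and *Cxcl16* in PB and BM, where libraries held 0 to 56 reads.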
